A study of Saccharomyces cerevisiae with 44 samples.

Results

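The response of budding yeast to MMS was compared with its response to CPT, gene by gene, as a difference of responses. For each gene the log2 change from vehicle to CPT was subtracted from the log2 change from vehicle to MMS, so that a positive value means a stronger rise, or a weaker fall, with MMS. All genes entered, and 6344 of 6692 counted features passed the filter on low counts. MMS and CPT are the usual field abbreviations of methyl methanesulfonate, which methylates DNA bases, and camptothecin, which traps topoisomerase I on DNA, and the labels give the abbreviations only. All 4 groups were wild-type Saccharomyces cerevisiae of the W303 background in the rich medium YEPD. MMS at 0.002% was set against water, a group named C0, and CPT at 100 µg/mL was set against 1 N NaOH, a group named CC. According to the labels both agents were given at their IC50, and the exposure times are not stated there. Each group held 2 cultures, each sequenced as 2 technical replicates that were summed, so every p-value rests on the spread between cultures.

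The 16 libraries held 6.82 to 15.08 M counts, with the lowest total in CPT. Genes specific to mating type a summed to 1301 to 1910 CPM (counts scaled to library size by edgeR) over the 8 cultures, and those specific to mating type alpha to 30.8 to 40.6 CPM. No gene of either mating list passed the threshold in the difference. The vehicles themselves differed in 14 genes of 6344 (0.221%). None of these 14 was called in the difference of responses, which contains both vehicles, and C0 against CC is given beside several results.

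Yeast grown with oxygen makes ergosterol by a long pathway with many oxygen-dependent and heme-dependent steps, and it builds cytochromes for the respiratory chain. When oxygen, heme or sterol runs short, a separate set of genes comes on. This set holds cell wall mannoproteins of the TIR and DAN families, sterol importers, and hypoxic versions of enzymes such as ANB1. Rox1 is a repressor of hypoxic genes, Upc2 an activator that binds sterol response elements, and Hap1 a heme-dependent activator. DNA damage and stalled replication forks act instead through the Mec1 and Rad53 checkpoint kinases and Dun1. These kinases raise dNTP supply through the ribonucleotide reductase genes.

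The promoters below are shown because each belongs to a gene called in the difference and holds the motif of a regulator of its list. Letters were read from the RefSeq R64 chromosomes, the sacCer3 build of the counts, in a window from 500 to 81 bases before the coding start. All are written in the direction of the gene, and capitals mark the motif on either strand. The core of the Rox1 site, ATTGTTC, was found in 9.88% of 5979 such windows and in 12 of the 30 anaerobic genes with a window. Of these 12, 3 were among the 12 called anaerobic genes, and of all genes higher in the difference 5 of 49 windows (10.2%) held it. ANB1 held it 3 times, starting 312, 281 and 214 bases before the coding start, and HEM13 held it once at 182 bases.

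ANB1 (chrX:525569-525713, minus strand): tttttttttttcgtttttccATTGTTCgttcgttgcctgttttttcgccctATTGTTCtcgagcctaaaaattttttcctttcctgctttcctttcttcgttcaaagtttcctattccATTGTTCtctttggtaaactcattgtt
HEM13 (chrIV:546440-546486, plus strand): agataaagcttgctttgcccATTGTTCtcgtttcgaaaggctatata

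The sterol response element TCGTATA, the site of Upc2, stood in 5.82% of all windows. It stood in 9 of 26 windows of sterol synthesis genes, all of them genes that were lower in the difference. Of the 12 called anaerobic genes 1 held it, DAN1, which was higher. Over all called genes it stood in 5 of 49 windows of higher genes (10.2%) and in 16 of 83 of lower genes (19.3%). The Rox1 core also stood in 4 of the 20 sterol synthesis genes called lower, ERG5 and CYB5 among them.

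DAN1 (chrX:709884-709930, minus strand): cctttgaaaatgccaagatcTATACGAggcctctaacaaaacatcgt
ERG3 (chrXII:253515-253601, plus strand): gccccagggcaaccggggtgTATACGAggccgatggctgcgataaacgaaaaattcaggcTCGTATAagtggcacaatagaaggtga
ERG13 (chrXIII:20723-20769, minus strand): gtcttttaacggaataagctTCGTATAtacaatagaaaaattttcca
ERG28 (chrV:238268-238314, minus strand): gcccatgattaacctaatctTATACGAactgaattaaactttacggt

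A match shows only that these letters are present. It does not show that a factor bound there.

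Of the 6344 genes, 136 (2.14%) passed an adjusted p of 0.05 in the difference (edgeR quasi-likelihood F test, Benjamini-Hochberg adjustment). In 51 (0.804%) MMS gave the higher response and in 85 (1.34%) the lower, and the median gene differed by -0.014 log2. At an unadjusted p under 0.05 there were 725. MMS changed 683 genes (10.8%) against C0, and CPT changed 178 (2.81%) against CC. Most called genes passed with MMS and not with CPT, which does not show that CPT left them unchanged. The MMS and CPT responses had opposite signs in 72 of the 85 lower genes and 23 of the 51 higher genes. Calling on the difference favours such genes. Of the higher genes 17 are near-identical copies or overlap another feature and count as uncertain, against 1 of the lower genes, and a fit without such features called 35 and 83. Among the 85 lower genes, 78 passed the threshold in MMS against C0 and not in CPT against CC, and 4 did the reverse. Among the 51 higher genes the counts were 28 and 11, and a further 11 passed in both. ERG28 was lower and passed both tests with opposite signs. The MMS and CPT cultures, each taken from its vehicle mean, did not overlap in any of the 136, a state that 50.8% of all tested genes shared. The median of C0 less CC was -0.425 log2 over the 51 higher genes and -0.042 over the 85 lower genes, and its part in the difference was not tested. MMS was also set directly against CPT without vehicles, a comparison added after seeing the data. MMS was higher in 33 of the 51 (4.41% of all genes were) and lower in 83 of the 85 (7.11%). The difference contains the same MMS and CPT cultures, so these counts are not independent of how the genes were called.

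**Figure D1:**
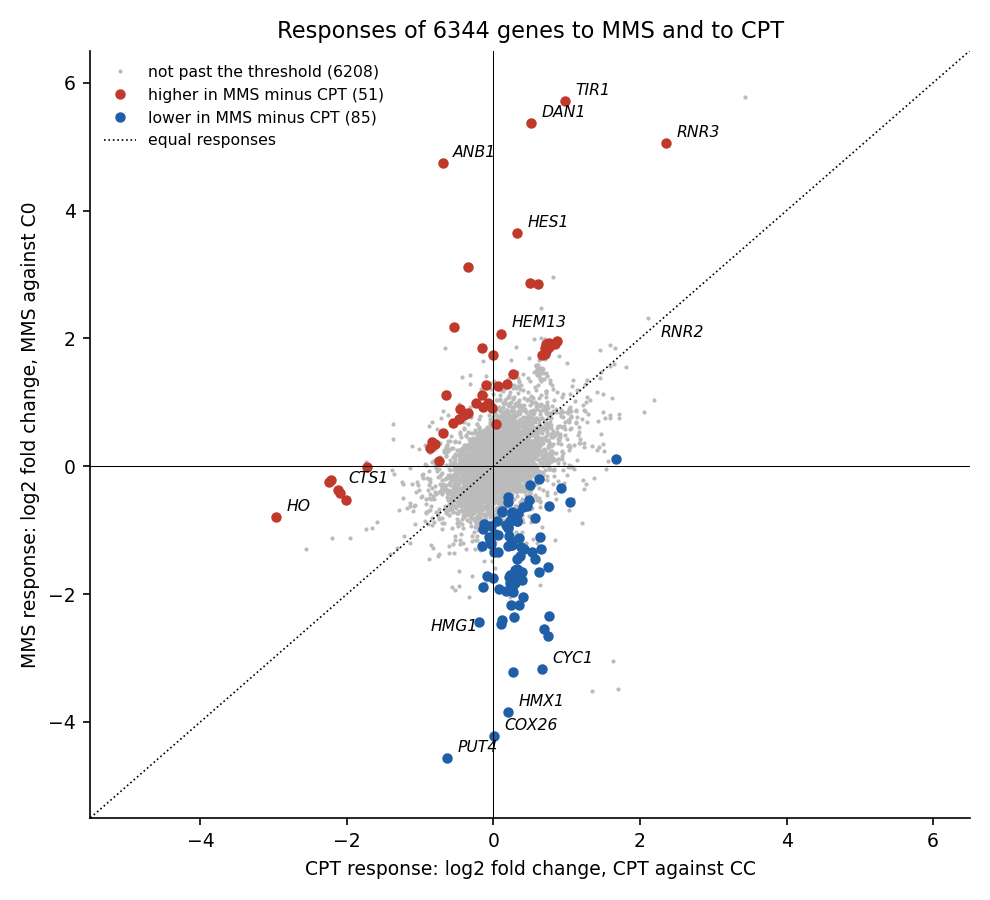
Each point is 1 of 6344 genes, with the log2 fold change of CPT against CC on the x axis and of MMS against C0 on the y axis, and colours mark the 51 higher and 85 lower genes of the difference. The coloured genes spread mainly along the MMS axis, while CTS1 and HO lie far to the left and RNR2 lies near the line of equal responses.

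Anaerobic genes gave the highest values. Of 32 tested members, 11 were higher and 1 was lower in the difference, with a median of 0.78 log2 against -0.014 for all genes. In MMS against C0 17 members rose (6.07% of all genes did) and 1 fell, and in CPT against CC 1 rose (1.91% of all genes did).

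ANB1 encodes the hypoxic form of the translation factor eIF5A. Its level was 11.5 and 16.5 CPM in C0, 321 and 422 in MMS, 16.5 and 7.18 in CC, and 7.93 and 6.53 in CPT. Only the MMS cultures were high, and neither overlapped any other culture. The difference was 5.43 ± 0.55 log2 (SE, adjusted p = 4.48e-05 by edgeR).

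TIR1 and DAN1 encode mannoproteins of the anaerobic cell wall. TIR1 lay at 2.64 and 2.42 CPM in C0, 96.6 and 170 in MMS, 1.62 and 1.80 in CC, and 4.25 and 2.46 in CPT. DAN1 lay at 1.80 and 2.74 CPM in C0, 49.7 and 136 in MMS, 2.26 and 0.778 in CC, and 2.38 and 1.79 in CPT. Both genes were low in all but the MMS cultures, and the second MMS culture was the higher of the pair for each. Differences were 4.75 ± 0.44 log2 for TIR1 (edgeR adjusted p = 1.84e-05) and 4.85 ± 0.77 for DAN1 (edgeR adjusted p = 0.00167). TIR4, of the same class, followed at 3.47 ± 0.82 log2. TIR2, TIR3 and DAN4 had differences of 1.06, 1.08 and 1.29 log2 that did not pass. Of all 8 mannoproteins on the list 3 were called, and 1 had a difference below 0. TIR3 and DAN4 did rise in MMS against C0, by 1.85 and 1.99 log2.

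HEM13 encodes coproporphyrinogen oxidase, an oxygen-using step of heme synthesis. It lay at 181 and 163 CPM in C0, 758 and 693 in MMS, 194 and 107 in CC, and 187 and 137 in CPT. The MMS cultures stood apart from the 6 others, and the difference was 1.97 ± 0.30 log2 (edgeR adjusted p = 0.0013). HES1, an oxysterol-binding protein, and AUS1, a sterol importer, were higher by 3.33 ± 0.76 and 1.37 ± 0.27 log2. Of the 13 listed genes of sterol uptake and regulators, 4 were higher, 1 was lower and the others did not pass. AAC3, the hypoxic ADP/ATP carrier, was higher by 2.72 ± 0.50 log2. Its aerobic counterpart PET9 was lower, at -1.92 log2. PET9 lay at 198 and 199 CPM in C0 and 74.7 and 53.9 in MMS, but 254 and 435 in CC and 259 and 587 in CPT. HAP1, MGA2 and SUR2 were higher as well, by 1.26, 1.20 and 1.08 log2. HAP1 and MGA2 encode transcription factors, MGA2 being an activator of the desaturase gene OLE1, and SUR2 a sphingolipid hydroxylase. OLE1 itself had a difference of 0.02 ± 0.21 log2.

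Regulators of this set were split. UPC2 had a difference of 1.22 ± 0.43 log2 that did not pass (edgeR adjusted p = 0.229), though it rose by 1.11 log2 in MMS against C0. ROX1 had -0.06 ± 0.35 and MOT3, another repressor of hypoxic genes, -0.18 ± 0.27, and neither passed in either response. ARE2, a sterol esterifying enzyme listed under sterol uptake and regulators, was lower, at -2.12 ± 0.30 log2. It was the only member of the anaerobic list called lower, and membership of that part does not make a gene hypoxic. Without the second CPT culture or without the first CC culture 5 anaerobic genes were called higher, without the first C0 culture 6, without the second MMS culture 7, and a fit of the 8 cultures alone gave 3. The median was 0.507 log2 without the first CC culture. HES1, TIR4 and PET9 each lost the call in the same 5 of 8 fits without a culture (the second MMS, either C0, the second CPT or the first CC culture). AAC3 lost it without the second CPT culture.

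Sterol synthesis genes were lower as a group. Of 26 tested members, 20 were lower in the difference and none was higher, with a median of -1.12 log2. The mevalonate and squalene steps gave 8 of 10, and the late ergosterol steps 12 of 16. MMS lowered 23 of the 26 against C0 (4.7% of all genes fell), whereas with CPT none fell and ERG28 rose by 0.65 log2.

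HMG1 encodes the main HMG-CoA reductase, the rate-limiting step of the mevalonate pathway. Its level was 720 and 890 CPM in C0, 164 and 126 in MMS, 689 and 642 in CC, and 671 and 759 in CPT. The MMS cultures were far below all others, which lay close together. HMG1 differed by -2.58 ± 0.20 log2 (edgeR adjusted p = 3.27e-06). HMG2, the other reductase isozyme, had 295 and 293 CPM in C0 and 417 and 410 in MMS. It rose by 0.49 log2 in MMS against C0, and its difference of 0.61 ± 0.19 did not pass (edgeR adjusted p = 0.166).

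ERG5, the C-22 sterol desaturase, lay at 161 and 206 CPM in C0, 37.2 and 25.6 in MMS, 152 and 171 in CC, and 216 and 306 in CPT. CYB5, cytochrome b5, which passes electrons to sterol and lipid enzymes, lay at 44.3 and 64.1 CPM in C0, 10.3 and 11.02 in MMS, 50.7 and 51.4 in CC, and 82.1 and 91.3 in CPT. In both genes the MMS cultures were the lowest and the CPT cultures the highest. Differences were -3.24 ± 0.37 for ERG5 and -3.11 ± 0.37 log2 for CYB5 (edgeR adjusted p = 0.000134 and 0.000143). The CPT rises of 0.69 and 0.76 log2 did not pass by themselves.

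ERG3, the C-5 desaturase whose promoter holds 2 Upc2 motifs, was lower, at -1.77 ± 0.24 log2. ERG13, the HMG-CoA synthase gene with the same count of motifs in its window, was lower, at -1.43 ± 0.22. ERG28, a scaffold of the demethylation complex, was lower, at -1.95 ± 0.24. ERG11, the lanosterol demethylase targeted by azole drugs, was lower, at -1.35 ± 0.19 and had no match in the window. Members that did not pass were ERG27, ERG24, ERG4 and IDI1, with differences of -0.66 to -0.37 log2, and HMG2 and NCP1. NCP1, the reductase partner of ERG11, had 0.97 ± 0.33 log2 and rose in MMS against C0 by 0.91. In fits without 1 culture 16 to 20 members were called lower, 15 of them in every such fit. A fit of the 8 cultures alone called 14 lower. Without the second CC culture 1 member was called higher.

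**Figure D2:**
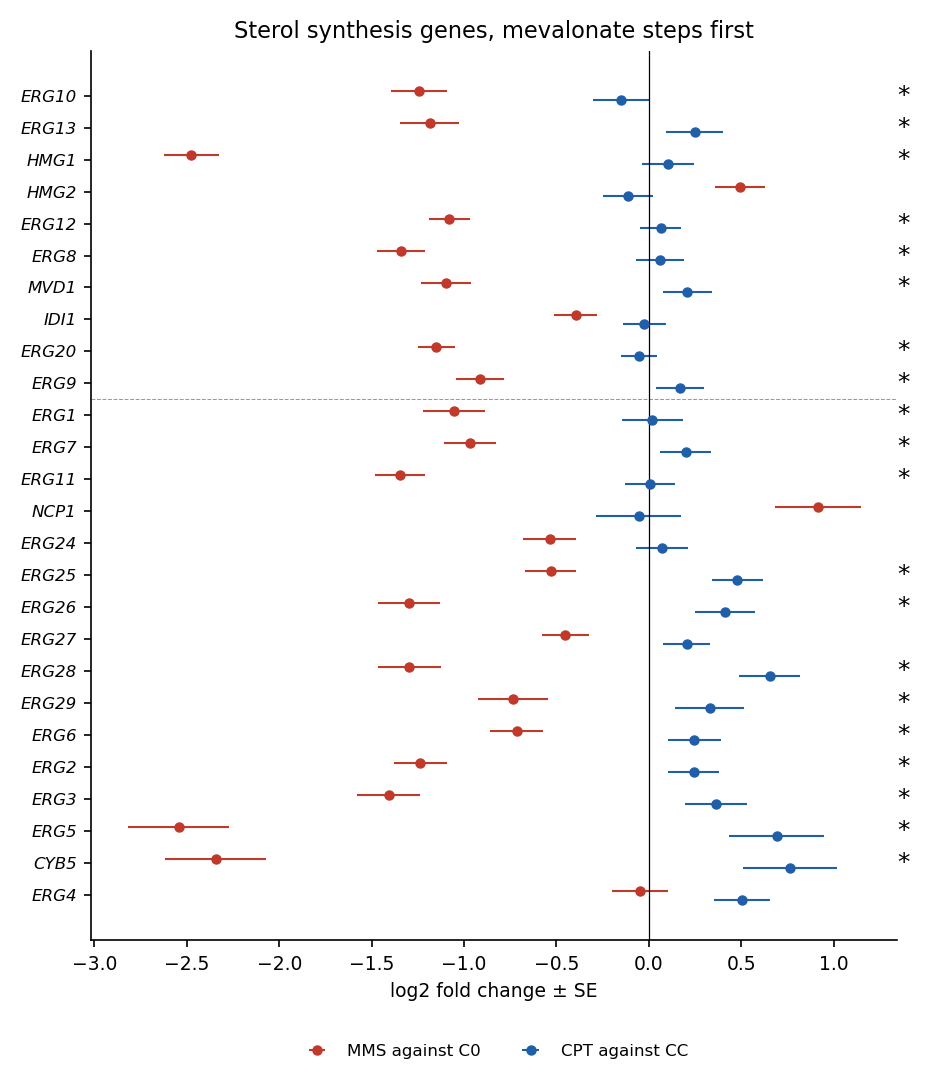
Log2 fold changes with SE of MMS against C0 (red) and CPT against CC (blue) for 26 sterol synthesis genes in the approximate order of the pathway, with the 10 mevalonate and squalene genes above the dashed line and asterisks for the 20 genes lower in the difference. Red points lie left of 0 for all but HMG2 and NCP1, and blue points lie between -0.15 and 0.76.

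**Figure D3:**
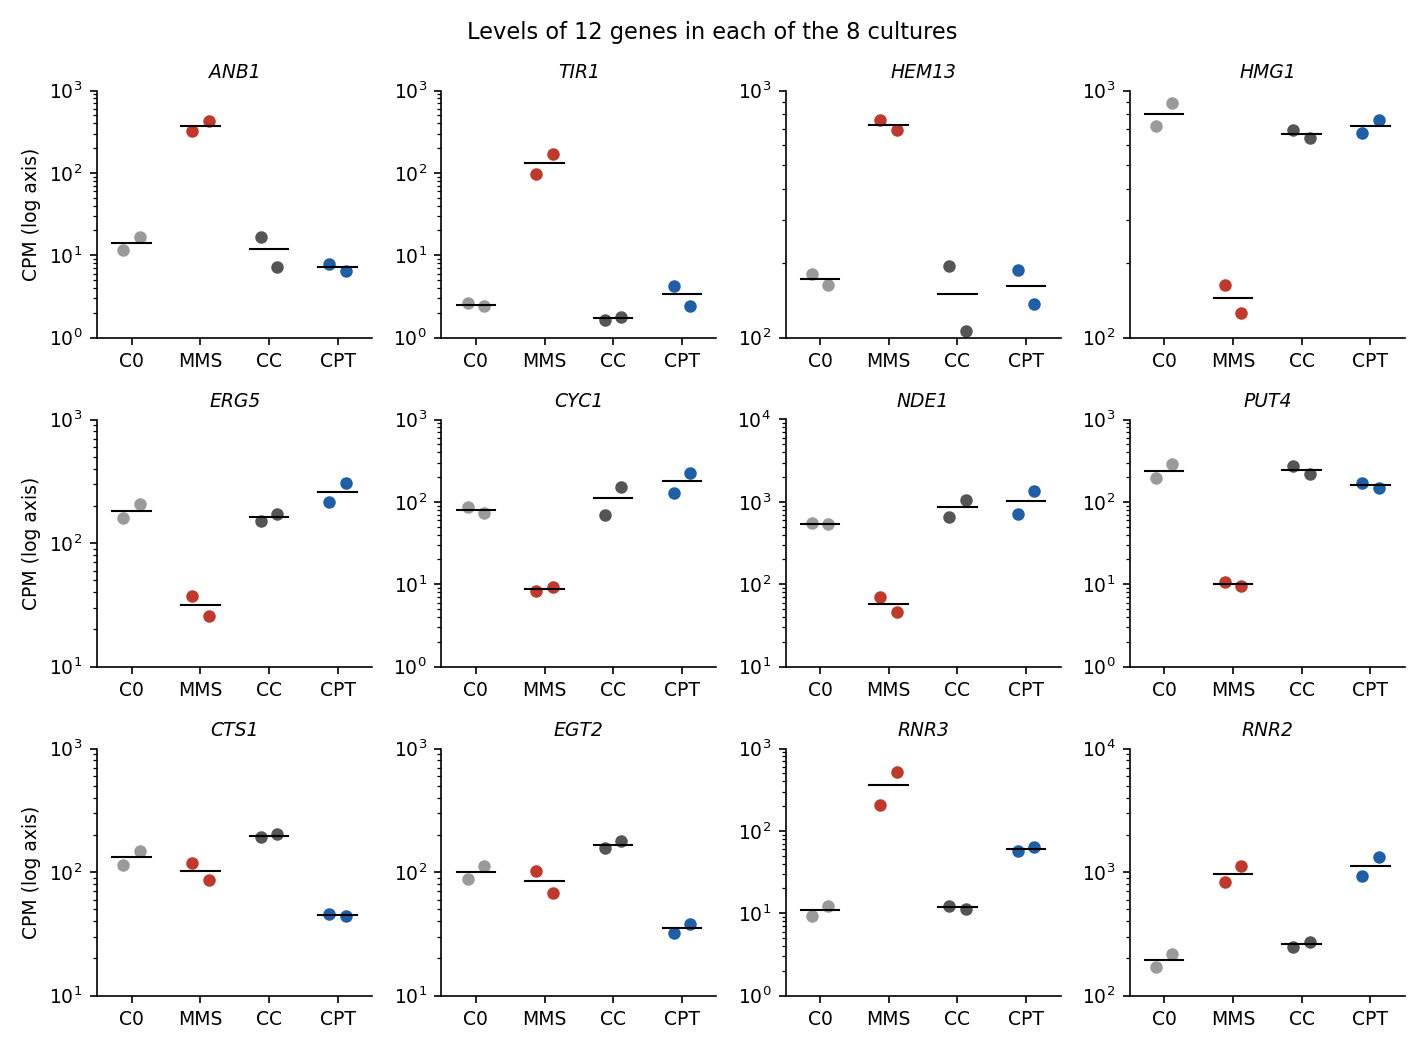
CPM on a log axis in each of the 8 cultures for 12 genes, with 1 point per culture and a line at the group mean. MMS cultures stand apart for ANB1, TIR1, HEM13, HMG1, ERG5, CYC1, NDE1 and PUT4, CPT cultures for CTS1 and EGT2, and both agents for RNR3 and RNR2.

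Respiratory chain genes were lower too, with calls in some complexes and none in others. Of 38 nuclear members, 18 were lower and none was higher, with a median of -1.30 log2. All 8 genes listed under complex III were lower, as were 8 of 9 of complex IV, cytochrome c (CYC1) and the external NADH dehydrogenase NDE1. CYT1, cytochrome c1, is a further complex III subunit that the list groups with cytochrome c, and it had -0.35 ± 0.33 log2 and did not pass. None of the 12 ATP synthase genes passed, and neither did complex II (SDH1, SDH2, SDH3 and SDH4). Their medians were still below that of all genes, at -0.70 log2 for ATP synthase. In MMS against C0 the same count, 18 of 38, fell (4.7% of all genes did), and with CPT none passed in either direction. The CPT values of all 38 were above 0, with a median of 0.315 log2.

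CYC1 lay at 86.3 and 73.1 CPM in C0, 8.39 and 9.20 in MMS, 69.0 and 154 in CC, and 129 and 225 in CPT. NDE1 lay at 553 and 540 CPM in C0, 70.9 and 45.9 in MMS, 660 and 1066 in CC, and 719 and 1359 in CPT. The MMS cultures were the lowest for both genes without overlap. In CC and CPT the second culture was the higher by a wide margin. CYC1 differed by -3.85 ± 0.45 log2 and NDE1 by -3.49 ± 0.37 (edgeR adjusted p = 0.000143 and 7.33e-05). COX26, a small subunit of the respiratory supercomplex, lay at 1.04 and 1.01 CPM in MMS against 26.0 and 12.2 in C0, and differed by -4.23 ± 0.84, a call lost without either MMS culture, the first C0, the second CPT or the first CC culture.

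Complex IV also showed an isoform pair. COX5A, the aerobic form of subunit 5, lay at 168 and 188 CPM in C0, 39.4 and 30.3 in MMS, 173 and 310 in CC, and 198 and 388 in CPT, a difference of -2.63 ± 0.38 log2. COX5B, the hypoxic form, lay at 84.9 and 60.0 CPM in C0 and 119 and 195 in MMS. It rose by 1.11 log2 in MMS against C0, while its difference of 0.90 ± 0.43 did not pass (edgeR adjusted p = 0.445). CYC7, the hypoxic form of cytochrome c, had a difference of -2.50 ± 1.09 that did not pass (edgeR adjusted p = 0.391), with C0 cultures at 62.2 and 18.2 CPM.

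Vehicle and culture moved with the respiratory list. All 38 members were lower in C0 than in CC, with a median of -0.576 log2, and none of these passed. The median of the first culture less the second was -0.85 log2 in CC and -1.05 in CPT, against 0.039 in C0 and 0.154 in MMS. Glucose-repressed genes showed the same order of cultures in CC and CPT, with medians of -0.628 and -0.63. So did general stress genes, at -0.884 and -0.682, with 0.759 in C0. Anaerobic genes had the reverse order, at 0.497 in CC and 0.389 in CPT, against -0.1 in C0 and -0.059 in MMS. The part of these gaps in the result was not tested. Without the second MMS culture 8 respiratory genes were called, without the second CPT culture 9, and without the first CC culture 10. The list median was -0.66 log2 without the second CPT culture and -0.92 without the first CC culture, against -1.79 without the first CPT and -1.92 without the second CC culture. Without either C0 culture 12 were called, and a fit of the 8 cultures alone gave 4. Directly against CPT, 37 of 38 were lower in MMS (7.11% of all genes were), with a median of -1.80 log2. That comparison leaves out the vehicles, so a gap between the 2 sets of cultures such as that of C0 and CC stays in it.

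**Figure D4:**
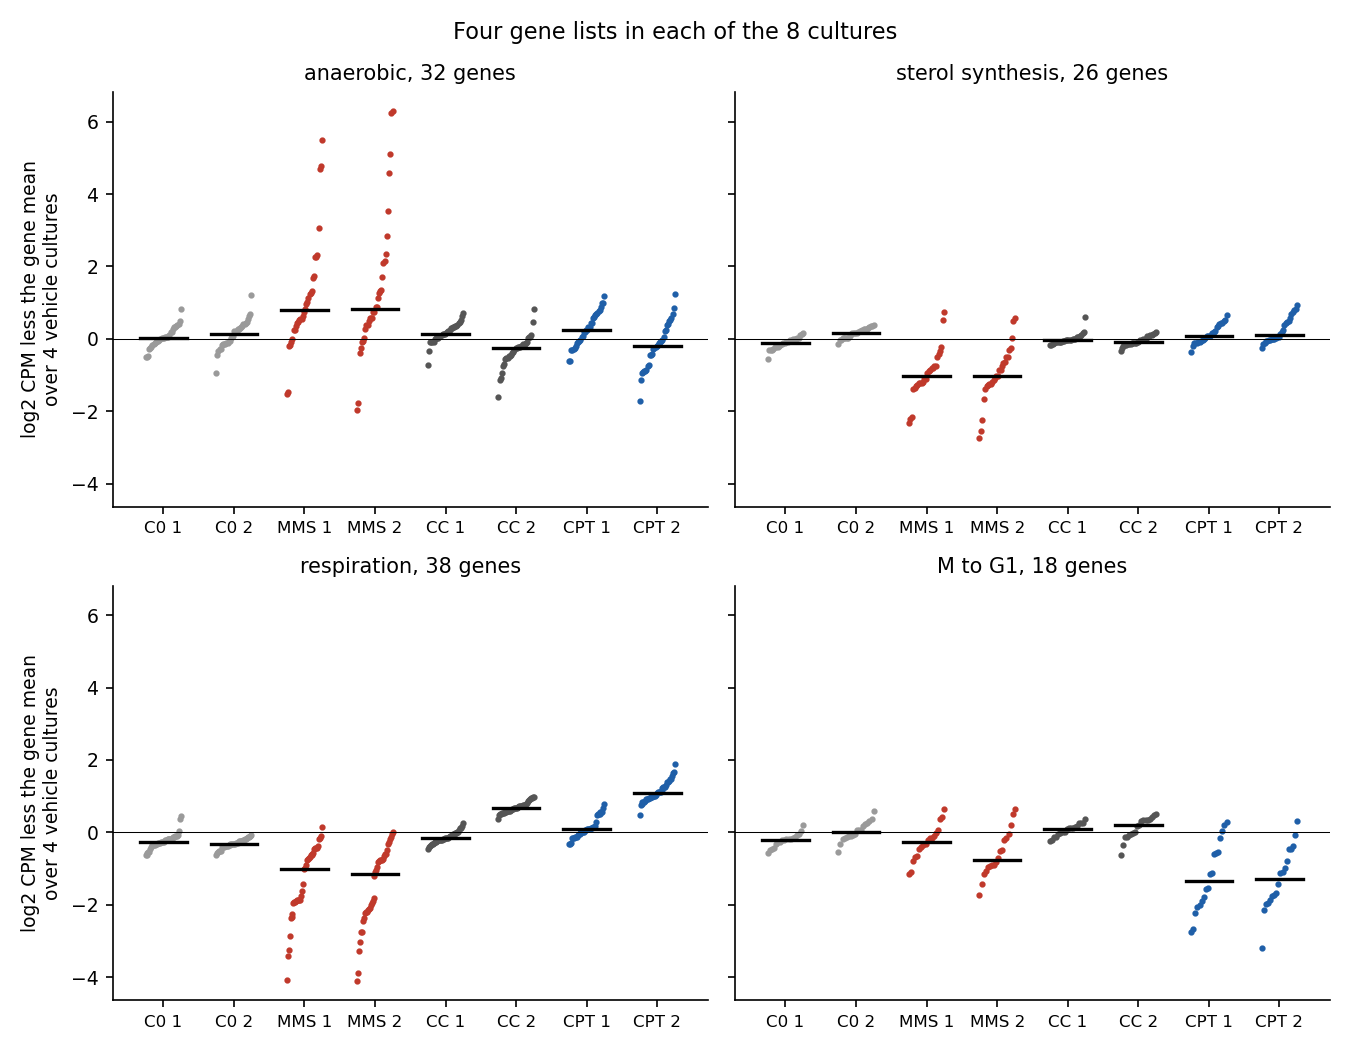
Log2 CPM less the gene's mean over the 4 vehicle cultures, for each member of 4 gene lists (points) in each of the 8 cultures, with the list median as a line. Sterol medians are -1.02 in both MMS cultures and between -0.103 and 0.176 elsewhere, M to G1 medians are -1.34 and -1.27 in CPT, and respiratory medians run from -1.15 in the second MMS culture to 1.10 in the second CPT culture.

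Heme and iron genes gave a few calls of both signs. HMX1 encodes heme oxygenase, which degrades heme. It lay at 92.9 and 89.9 CPM in C0, 5.64 and 7.08 in MMS, 75.6 and 118 in CC, and 113 and 109 in CPT. Only the MMS cultures were low, and the difference was -4.04 ± 0.48 log2 (edgeR adjusted p = 0.000143). CCC2, a copper transporter needed to load the iron oxidase Fet3, was lower, at -1.73 ± 0.38, and FET4, a low-affinity iron transporter, was higher by 1.08 ± 0.20. The CCC2 call was lost in 6 of 8 fits without a culture (it held without the first C0 and the first CPT culture), and the FET4 call without the first CC culture. C0 was lower than CC in 2 of the 26 (0.189% of all genes were), FIT2 and FRE1, neither of them called in the difference. The other 23 of 26 iron regulon members did not pass, FET3 being nearest at -1.18 ± 0.33 (edgeR adjusted p = 0.0931). In MMS against C0 6 members fell (4.7% of all genes did) and 2 rose (6.07% did), and with CPT none passed. Of 8 heme synthesis genes, HEM13 and HEM14 were higher, and HEM14 overlaps another annotated gene, so its counts are uncertain. The Aft1 core TGCACCC stood in 22 of 26 iron regulon windows and in 2.07% of all windows. All 3 called members held it, including FET4, which was higher, at 213 bases before the coding start. Below are the stretches in HMX1 and CCC2, which were lower.

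HMX1 (chrXII:554102-554148, minus strand): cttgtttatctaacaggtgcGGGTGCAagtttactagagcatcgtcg
CCC2 (chrIV:1005365-1005459, plus strand): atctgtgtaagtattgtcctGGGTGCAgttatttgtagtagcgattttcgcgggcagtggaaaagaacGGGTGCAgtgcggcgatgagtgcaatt

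The nitrogen list gave 3 lower calls of 19 and a median of 0.033 log2, and all 3 are genes of proline uptake and breakdown, a grouping made after their values were seen. In MMS against C0 12 members fell (4.7% of all genes did), and in CPT against CC 3 fell (0.898% did). PUT4, the proline permease, lay at 193 and 286 CPM in C0, 10.7 and 9.45 in MMS, 274 and 218 in CC, and 172 and 147 in CPT. The MMS cultures were below all others by more than the spread of any group, and the difference was -3.94 ± 0.42 log2 (edgeR adjusted p = 7.53e-05). PUT1 and PUT2, which break proline down in mitochondria, were lower, at -2.28 ± 0.52 and -1.47 ± 0.22. The PUT1 call was lost without the first MMS, first C0, second CPT or either CC culture. The other 16 of 19 genes on the nitrogen list did not pass. GAP1, the general amino acid permease, fell by 0.91 log2 with MMS and by 0.90 with CPT.

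Genes of the M to G1 interval fell mainly with CPT. The list holds septum-cutting genes of daughter cells and other genes expressed at that time. Of 18 members 6 were higher in the difference and none was lower, with a median of 0.81 log2. With CPT 11 members fell (0.898% of all genes did) and with MMS 4 fell (4.7% did). The 6 were the chitinase CTS1, the daughter-specific glucanases and wall proteins DSE2, DSE4, EGT2 and SCW11, and the HO endonuclease.

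CTS1 lay at 115 and 148 CPM in C0, 118 and 86.3 in MMS, 191 and 203 in CC, and 46.2 and 44.1 in CPT. EGT2 lay at 87.6 and 113 CPM in C0, 101 and 68.3 in MMS, 156 and 179 in CC, and 32.1 and 38.2 in CPT. In both genes MMS overlapped C0, and CPT lay below all other cultures. CTS1 fell by 2.12 log2 with CPT, and its value with MMS was -0.37 (edgeR adjusted p = 0.155). Differences were 1.76 ± 0.22 log2 for CTS1 and 2.01 ± 0.29 for EGT2 (edgeR adjusted p = 0.000248 and 0.000582). C0 less CC was -0.58 log2 for CTS1 and -0.74 for EGT2, a gap that did not pass and whose part in the difference was not tested.

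HO lay at 101 and 120 CPM in C0, 72.3 and 55.0 in MMS, 123 and 115 in CC, and 18.0 and 12.3 in CPT, with vehicles close together. It fell by 2.97 log2 with CPT and differed by 2.18 ± 0.39 (edgeR adjusted p = 0.00502). DSE1 fell with both agents, by 2.56 log2 with CPT and 1.29 with MMS, and its difference of 1.27 ± 0.33 did not pass (edgeR adjusted p = 0.0586). ASH1, the daughter-specific repressor of HO, fell by 0.87 log2 with CPT and had -0.20 with MMS. In bulk RNA, fewer cells in this interval and less RNA per cell cannot be told apart.

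Core histone genes, transcribed in S phase, took the same direction in part. HTB2 (histone H2B) lay at 25.1 and 29.2 CPM in C0, 36.7 and 29.5 in MMS, 46.7 and 41.0 in CC, and 26.8 and 21.2 in CPT. The CPT cultures of HTB2 overlapped C0, and its CC cultures were the highest, a vehicle gap whose part in the difference was not tested. HTB2 and HHT1 (histone H3) were higher in the difference, by 1.15 ± 0.24 and 0.83 ± 0.17 log2. With CPT 5 of 8 fell (0.898% of all genes did) and with MMS 1 fell (4.7% did). Directly against CPT, 1 of 8 was higher in MMS (4.41% of all genes were), with a median of 0.358 log2. All 8 were lower in C0 than in CC, with a median of -0.27 log2 and none past the threshold, and neither HTB2 nor HHT1 was called in a fit of the 8 cultures alone, nor without the first MMS, first C0, second CPT or first CC culture. Also higher were the G1 cyclin CLN2, by 1.21 ± 0.30 (a call lost in each fit without a culture), and the cell wall protein PIR1, by 1.70 ± 0.30 log2. PIR1 was the only call among 20 cell wall genes. Of these 20, 4 were lower in C0 than in CC (HSP150, CRH1, SED1 and CCW14), as were 0.189% of all genes. PIR1 itself had -0.56 log2 in C0 less CC, which did not pass. PIR1 fell by 1.72 log2 with CPT and had -0.02 log2 with MMS. None of 14 genes of the G2 to M list passed.

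**Figure D5:**
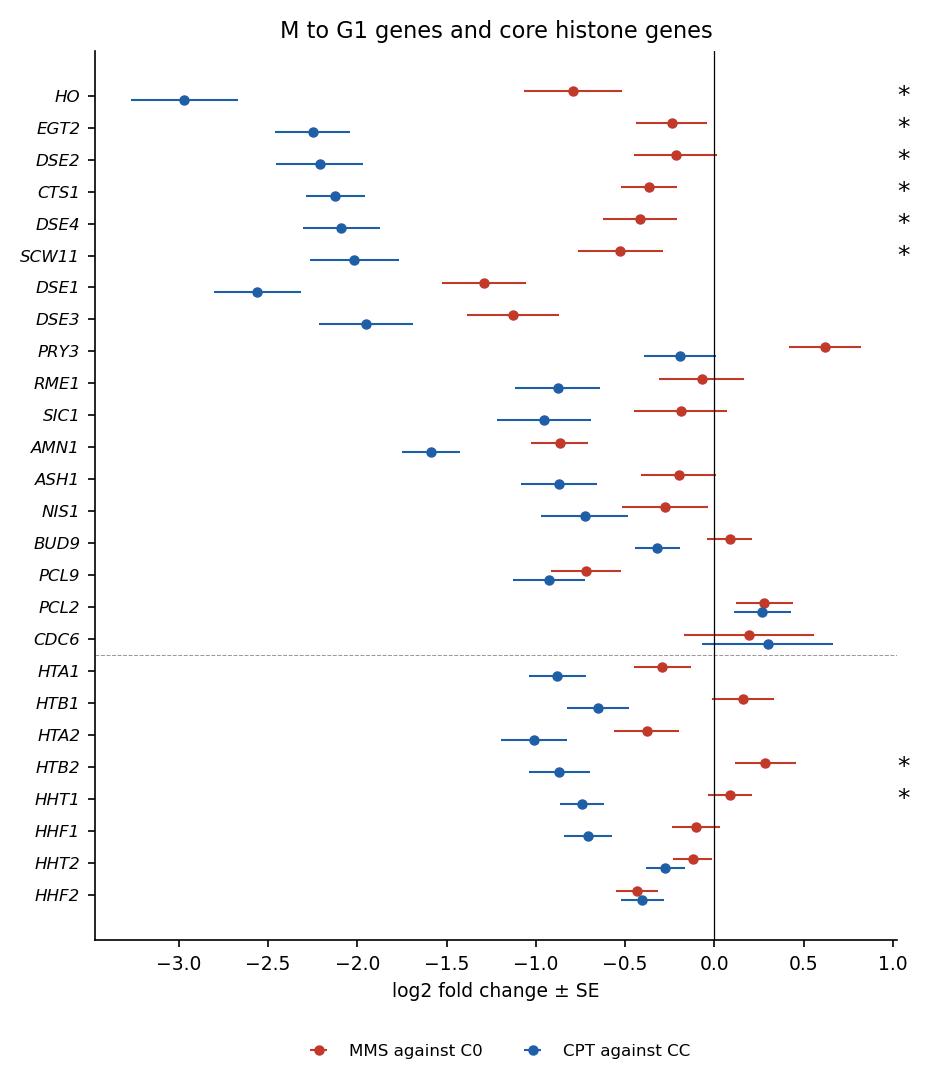
Log2 fold changes with SE of MMS against C0 (red) and CPT against CC (blue) for 18 M to G1 genes, in order of the difference, and 8 core histone genes below the dashed line. Asterisks mark the 8 genes higher in the difference, and for these the blue points lie between -2.97 and -0.74 while the red points lie between -0.79 and 0.28.

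Of 27 DNA damage genes 13 rose with MMS (6.07% of all genes did) and 11 with CPT (1.91%), 9 of them with both, and none fell with either. A further 12 passed in neither response. In the difference 3 were higher and 1 was lower, with a median of -0.033 log2.

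Ribonucleotide reductase genes rose with both agents. RNR2, a small subunit, lay at 170 and 219 CPM in C0, 825 and 1114 in MMS, 246 and 274 in CC, and 932 and 1317 in CPT. Both agents stood above both vehicles, and the MMS and CPT cultures overlapped. RNR1, the main large subunit, rose by 1.47 log2 with each agent, RNR2 by 2.32 with MMS and 2.11 with CPT, and RNR4, the other small subunit, by 1.55 and 1.81. Their differences did not pass, with standard errors of 0.27, 0.24 and 0.21 log2.

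RNR3, the damage-induced large subunit, lay at 9.33 and 12.4 CPM in C0, 204 and 519 in MMS, 12.4 and 11.3 in CC, and 57.3 and 63.9 in CPT. Both agents were above the vehicles, MMS above CPT, and the MMS cultures lay far apart. It rose by 5.06 log2 with MMS and 2.36 with CPT, a difference of 2.70 ± 0.47 (edgeR adjusted p = 0.00406). HUG1, an inhibitor of ribonucleotide reductase, lay at 0.763 and 0.511 CPM in C0, 14.1 and 57.4 in MMS, 0.541 and 0.637 in CC, and 6.91 and 6.03 in CPT. Its difference of 2.34 ± 0.88 log2 did not pass (edgeR adjusted p = 0.275), and it reached 3.02 and passed without the first MMS culture.

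DDI2 and DDI3, which encode near-identical cyanamide hydratases, were higher by 2.24 ± 0.35 and 2.36 ± 0.38 log2. DDI2 lay at 6.94 and 5.62 CPM in C0, 32.6 and 58.1 in MMS, 6.40 and 5.77 in CC, and 8.87 and 9.60 in CPT. Their reads may be split between the copies, so the pair counts as uncertain. PLM2, a gene with a forkhead-associated domain that belongs to the checkpoint response, was lower, at -1.26 ± 0.28, having risen by 0.92 log2 with CPT. DUN1 rose by 0.69 log2 with MMS and 1.27 with CPT, and its difference of -0.58 ± 0.25 did not pass. MAG1, the glycosylase that removes methylated bases, had a difference of -0.52 ± 0.38 log2 and passed in neither response.

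Several other lists gave no call in the difference. These were the checkpoint, alkylation repair, topoisomerase and homologous recombination lists, the proteasome, Hsf1 chaperones and Yap1 targets, and the glucose repression, Gcn4, sulfur, ribosome biogenesis and mitochondrial genome lists. Of 32 proteasome genes 5 rose with MMS (6.07% of all genes did) and 3 with CPT (1.91%). Of 34 genes of the G1 to S list, where CLN2 was the only call, 12 rose with MMS and 7 with CPT. The medians in the difference were 0.034 log2 for the proteasome and 0.037 for G1 to S. RPN12, a proteasome lid subunit, rose by 1.14 log2 with MMS and 0.72 with CPT. The remaining calls on lists were VMA4 (higher, uncertain through an overlapping gene), SHC1 and HOR7 (lower). SHC1, a sporulation-specific chitin synthase regulator, lay at 16.0 and 16.4 CPM in C0, 14.8 and 20.3 in MMS, 14.5 and 9.69 in CC, and 37.1 and 40.0 in CPT, so the CPT cultures alone were high.

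Hydroxyurea (HU) in the same medium, which shares the C0 cultures with MMS, gives values beside these. Against C0 no sterol synthesis or respiratory gene passed with HU, and 1 of 32 anaerobic genes rose (2.62% of all genes did). In the M to G1 list 8 fell with HU (0.914% of all genes did), and CTS1 had -1.25 log2, between the values of CPT and MMS. ANB1, HMG1 and CYC1 had 0.67, -0.35 and -0.65 log2 with HU against 4.74, -2.48 and -3.18 with MMS.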

How the data were processed

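RNA sequencing counts of 22 cultures (44 libraries, 11 groups) were used, of which 8 cultures enter the difference directly. The authors deposited whole-number read counts per feature on sacCer3, made with featureCounts 1.6.0 and no strand option, per the file headers, whose alignment names contain bowtie2, mskDup and non-redundant. Removal of duplicates can compress abundant genes. Of 6692 features 6008 matched RefSeq R64 names, 6000 with the same coordinates. Technical replicates were summed per culture. Genes were kept with filterByExpr (minimum count 10, minimum total 15), scaled by TMM and fitted with 1 mean per group over all 22 cultures in edgeR 4.0.16 (R 4.3.3). The contrast (MMS - C0) - (CPT - CC) was tested with the robust quasi-likelihood F test, with Benjamini-Hochberg adjustment over 6344 genes (passing is an adjusted p under 0.05). Common dispersion gave a coefficient of 0.156 with 11 residual degrees of freedom. A standard error is the log2 value divided by the root of F. CPM use TMM library sizes. DESeq2 1.42.0 was an alternative. Features with a copy of 95% identity or more (BLAST 2.17.0, 387 features) or an overlapping feature (769), each over 30% of their length, are called uncertain. The procedure was tested on simulated data. The members and 29 gene lists were chosen with earlier results of these data known. Named genes were the 10 largest differences in each direction among called genes with a standard name, a mean of at least 10 CPM and no overlap, up to 3 called members per list (otherwise the smallest p), RNR1, RNR2, RNR3, RNR4 and HUG1. Other genes were named after their values were seen. The deposited DESeq2 tables were not used here.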

Additional observations from a re-analysis of the deposited data

How the results depend on the processing

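None of the 136 calls changed sign under any alternative that tested it. In all, 58 were called in every fit without a culture and 43 under every alternative. Other scaling, no filter, and rDNA and mitochondrial features left out gave 134 to 136 calls. Counts moved more with the samples fitted. The 8 cultures alone gave 52 (16 higher, 36 lower), and the 10 YEPD cultures 57 (18 and 39). These fits hold fewer cultures and also leave other groups out of the estimate of the spread. With the 8 cultures the edgeR adjusted p of HMX1 fell from 0.000143 to 2.88e-05, while that of QCR10 rose from 0.00115 to 0.117. The cause was not tested. The second technical replicate gave 87 (31 and 56) and the first 127 (46 and 81), each fitted on 1 of the 2 libraries per culture, and the cause was not tested. DESeq2 gave 191, of which 79 were higher, and MMS against CPT directly, added after seeing the data, gave 731 (280 and 451). Without 1 culture, calls ranged from 71 (without the second CPT culture) to 215 (without the first), with 22 to 89 higher and 49 to 134 lower. They numbered 81 without the second MMS culture, 77 without the first CC culture and 91 without the first C0 culture, and the cause was not tested.

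Culture numbers are shared by all groups, and the labels do not say that they pair cultures. Same-numbered cultures correlated by 0.486 between CC and CPT, 0.057 between C0 and MMS and -0.37 between C0 and CC. A replicate block within vehicle sets raised the calls to 322 (144 higher, 178 lower), while 1 block over all groups gave 128.

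RNR1, whose difference was close to 0, took the other sign with RLE factors (9.422e-06), the 8 cultures (0.001044), the 10 YEPD cultures (0.001977), the replicate block within sets (0.002271) and over all groups (0.006575), the second technical replicate (0.04134), uncertain features left out (0.007228), DESeq2 (9.185e-06) and directly (0.05585), and spanned -0.1497 to 0.1865 in fits without a culture. RNR2 spanned -0.0268 to 0.4776 in fits without a culture and was -0.2138 directly. Of the 37 genes named by rule past the threshold, 26 passed in every fit without a culture and 20 under every alternative. Other genes of the text that lost the call in at least 1 fit without a culture were AUS1, HAP1, MGA2, SUR2, SCW11, HEM14, HOR7, PLM2, LCB4, LCB5, DPL1, BNA1, BNA5 and TUP1. Each of the 10 Ty reading frames described below lost it in at least 1 such fit as well. Genes that passed in neither the fit of the 8 nor that of the 10 cultures included RNR3, AAC3, HES1, COX5A, QCR10, HEM14 and FET4. DAN1 did not pass with the 8 cultures, and COX26 did not pass with the 10.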

Other observations

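Several lipid genes outside the lists also differed, and they were picked after their values were seen. FAA1, an acyl-CoA synthetase, lay at 736 and 679 CPM in C0, 161 and 102 in MMS, 604 and 787 in CC, and 522 and 693 in CPT, so that only the MMS cultures were low. Its difference was -2.24 log2, and EHT1, a medium-chain ester synthase, had -1.74. ALE1, a lysophospholipid acyltransferase, moved the other way, at 567 and 580 CPM in C0, 1023 and 1106 in MMS, 509 and 466 in CC, and 352 and 360 in CPT, a difference of 1.34. The ceramide synthase LAC1 was higher by 1.23 log2, while the sphingoid base kinases LCB4 and LCB5 and the lyase DPL1 were lower, at -0.90, -0.80 and -0.81 (all past the edgeR threshold). BNA1 and BNA5 of NAD synthesis were lower, at -1.01 and -0.84 log2.

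Among the 51 higher genes were 10 Gag-Pol reading frames of Ty retrotransposons, with differences of 1.05 to 1.21 log2. They rose by 1.74 to 1.96 with MMS and by 0.66 to 0.86 with CPT. C0 less CC was -0.77 to -0.62, and MMS directly against CPT gave 0.34 to 0.54, which passed in none. The frames are near-identical, so their counts are not independent and are uncertain. The general repressor TUP1 had the same pattern, with a difference of 1.03 and C0 against CC of -0.85 log2.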
